A study of Mus musculus with 5 samples.

Results

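The genes described here are those of glutathione use, the peroxiredoxin and thioredoxin system, superoxide and peroxide removal, the metallothioneins, and the transcription factor NRF2 with its inhibitor KEAP1. They were chosen by symbol alone: glutathione S-transferases, glutathione peroxidases, peroxiredoxins, microsomal glutathione S-transferases, thioredoxin reductases and superoxide dismutases by family name, and Hmox1, Nqo1, Gclc, Gclm, Srxn1, Txn1, Cat, Nfe2l2, Keap1, Mt1 and Mt2 by their own. Of 18193 genes with a probe set annotated to a single symbol, 51 met this rule, carried by 90 probe sets. Where a gene had several probe sets, the 1 brightest on average across the 5 arrays was taken. Prdx1 and Gsta1 lie on probe sets annotated to several genes and were not analysed here.

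Transcripts were measured on 5 Affymetrix arrays of E14 mouse embryonic stem cells, 2 arrays of wild-type (WT) cells and 3 of cells carrying a mutation on both Trip12 alleles (Trip12 mut/mut). Trip12 encodes a ubiquitin ligase of the HECT type. All cells were grown on mouse embryo fibroblast feeder cells with leukaemia inhibitory factor, and the medium of both genotypes held 2-mercaptoethanol, a thiol reductant. The labels call the arrays of a group biological replicates. The sources used here do not give the nature of the mutation, the number of clones or whether feeder cells were removed before RNA extraction. The p-values measure only the spread between these arrays. Values are log2 RMA values, so a difference of 1 is 2-fold, and a positive difference means a higher level in the mutant.

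Glutathione is the main soluble thiol of animal cells. Glutamate-cysteine ligase (Gclc, Gclm) starts its synthesis, glutathione peroxidases spend it on peroxides, and glutathione S-transferases join it to electrophiles. Peroxiredoxins remove peroxides with electrons from thioredoxin, which thioredoxin reductase renews. NRF2, the protein of Nfe2l2, is held low by KEAP1, which passes it to a cullin ubiquitin ligase; when KEAP1 is modified by oxidants or electrophiles, NRF2 accumulates and drives many of these genes through the antioxidant response element.

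The array with the label Trip12 mut/mut replicate 1 was close to both WT arrays, and the mutant group is therefore described array by array. Whether its label is wrong or these cells did not differ from WT cannot be told apart here. Over the 51 genes, the differences between the WT arrays had an SD of 0.07, and those between the array labelled replicate 1 and the WT arrays had SDs of 0.068 and 0.066, against 0.312 to 0.359 for replicates 2 and 3 against WT. All 51 genes lay within 0.2 of the WT mean on the array labelled replicate 1. Trip12 itself read 10.17 and 10.25 in WT cells, 10.18 in that array, then 12.09 (replicate 2) and 12.57 (replicate 3). The position of its probes against the mutated part is unknown, so this is no check of the mutation itself. Counts over the 51 genes are given over all 5 arrays and without that array. Differences of single genes are without it unless all 5 arrays or another setting are named. Leaving that array out was a choice made from its values, which makes the p-values without it too favourable.

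Most fibroblast markers, which feeder cells express, read higher on replicates 2 and 3. Of 20 markers, 16 read higher on both of those arrays than on both WT arrays and 0 read lower. The other 4 (Col1a1, Lum, Pdgfra and Mmp2) overlapped WT. Lum, Pdgfra and Mmp2 read below WT on replicate 2 and above it on replicate 3. The summed linear signal of the 20, which the brightest genes dominate, was 42020 and 42615 in WT cells and 41525 in the array labelled replicate 1. It was 62314 on replicate 2 and 61736 on replicate 3, which are 1.47 and 1.46 times the WT mean. Of the 12 embryonic stem cell markers 3 read higher and 6 lower on both arrays, and their sum, which the brightest genes dominate, was 0.935 and 0.972 times WT. Pou5f1 differed by -0.13, Sall4 by -0.50 and Esrrb by 0.57, and Utf1 fell by 0.80 (limma adjusted p = 0.0422 in the 4-array comparison described below). None of the 12 and none of the 20 lay below the median of all values, 5.52, on every array. Of 5 red cell and blood markers 4 did, and the other, the leukocyte gene Ptprc, rose by 0.46 (adjusted p = 0.0497, same comparison). Blood markers summed to 1.27 and 1.23 times WT on replicates 2 and 3. The 10 endoderm markers summed to 1.24 and 1.23 times WT, with 4 of the 10 higher and 2 lower. In each of these sums the brightest gene weighs most, Ptprc for blood and Dab2 (difference 0.57) for endoderm. The 2 lower endoderm markers were Foxa2 (-0.84) and Sox17 (-0.26), at dim values. Fibroblasts also express many of the 51 genes, and fewer cells of a type cannot be told apart from less RNA per cell in such samples. The part of these other cell types in the differences below was not tested.

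Over all 5 arrays 0 of the 51 genes passed the test, against a background of 0.0% of 18193 genes (limma, Benjamini-Hochberg adjusted over all genes, threshold 0.05). The lowest adjusted p of any gene there was 0.748. An unadjusted p below 0.05 was found for 0 of the 51, and for 1.18% of all genes. The differences ran from -0.42 to 0.58 with a median of 0.05, beside a median of 0.02 over all genes. The 3 mutant arrays lay above both WT arrays for 3 of the 51 genes (Gpx3, Sod1 and Mt1), against 5.73% of all genes, and below both for 1 (Gstt2), against 6.29%. The share above both was near the background, and the share below both, of 1 gene, was under it.

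Without the array labelled replicate 1, more of the 51 genes read higher than lower, while the larger differences ran both ways. Both remaining mutant arrays lay above both WT arrays for 24 of the 51 genes (47.1%, against 26.7% of all genes) and below both for 7 (13.7%, against 17.5%). Among the 44 genes whose mean was at or above 5.52, the counts were 23 higher (52.3%, against 35.0% of all such genes) and 7 lower (15.9%, against 21.9%). The median difference of the 51 was 0.08, beside 0.02 for all genes. No gene reached 1. In size 9 exceeded 0.5 (5 higher and 4 lower) and 19 were below 0.1. Again 0 genes passed in limma, of the 51 and of all 18193; 11 of the 51 had an unadjusted p below 0.05, against 20.5% of all genes.

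Removing dim probe sets from that comparison left 11626 genes with at least 2 of the 4 arrays above 5.52, 44 of the 51 among them. None of the 44 passed the filter through 1 genotype only. The 7 left out were Gpx5, Gsta2, Gsta3, Gstm6, Gstm7, Gstt4 and Sod3. In this 4-array comparison Gpx8, Hmox1 and Gpx3 rose and 0 fell. These 3 of 44 (6.82%) stand beside 4.64% of all genes called there, 3.29% higher and 1.34% lower, which is a share near the background. With the filter set instead on a mean above 5.52, the same 3 genes were called, of 45, beside 4.36% of all genes (3.11% higher, 1.25% lower). All adjusted p-values below without another comparison named are limma's from these 4 arrays.

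**Figure D1:**
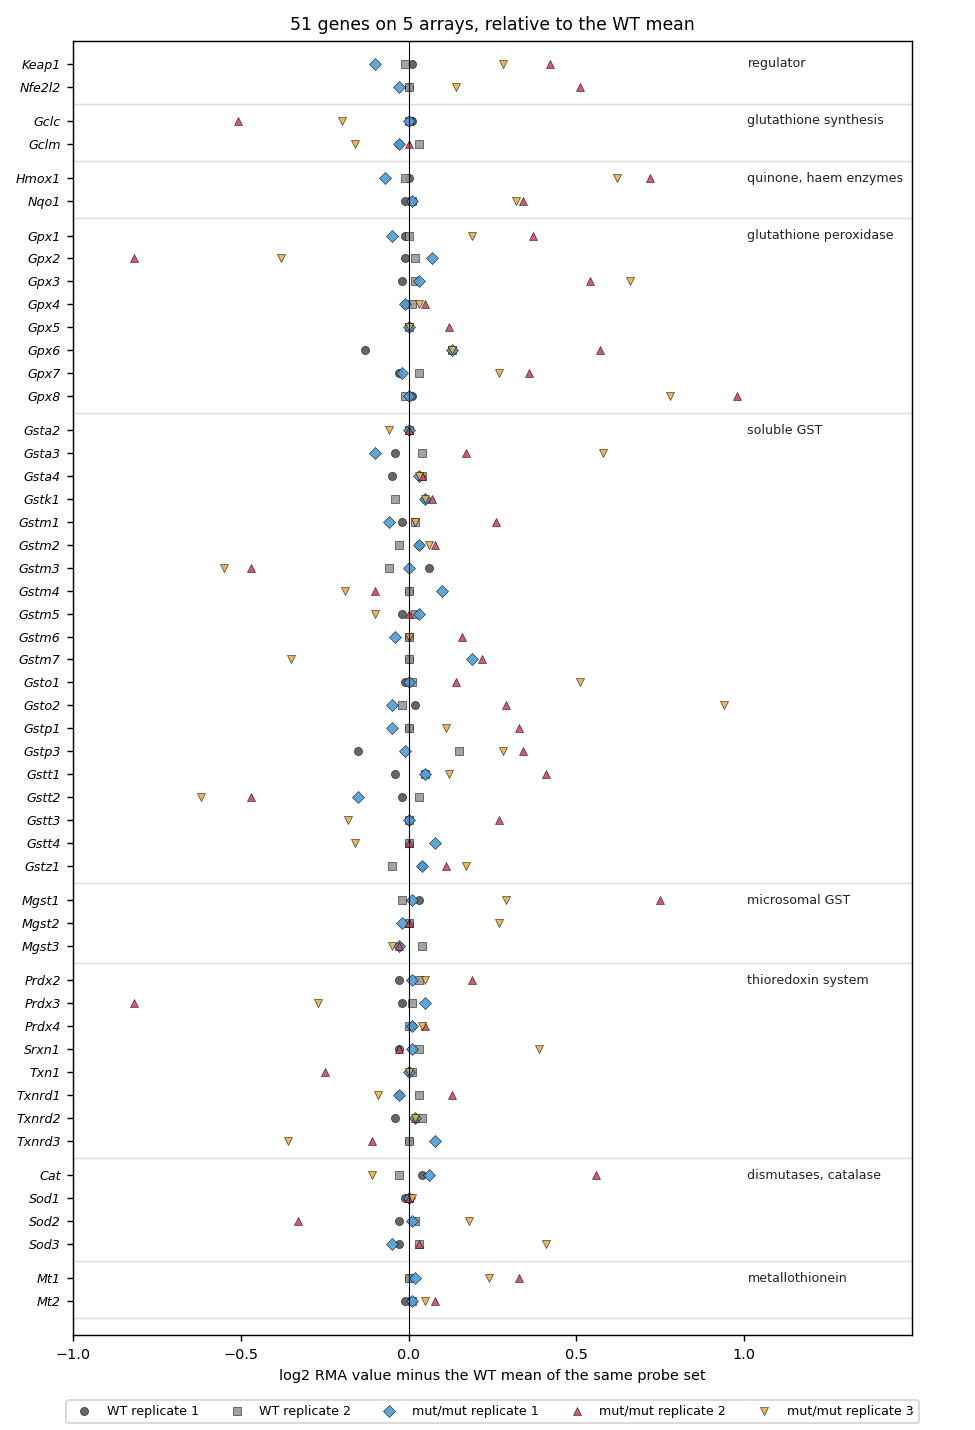
Each row is 1 of the 51 genes, grouped by role, and the horizontal axis is the log2 RMA value minus the WT mean of the same probe set, with 1 symbol per array. The blue diamonds of the array labelled replicate 1 lie within 0.2 of 0 in every row, and replicates 2 and 3 reach 0.98 and 0.78 for Gpx8 and -0.83 and -0.38 for Gpx2.

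The glutathione peroxidases held both the highest and the lowest difference of the 51 genes. Gpx8, a peroxidase anchored in the membrane of the endoplasmic reticulum, read 9.89 and 9.87 in WT cells, 9.88 in the array labelled replicate 1, then 10.86 (replicate 2) and 10.66 (replicate 3). The WT arrays and the array labelled replicate 1 were level, and both other arrays stood clear of them. Gpx8 rose by 0.88 (SE 0.10, 1.84-fold, adjusted p = 0.0422), and over all 5 arrays the difference was 0.58 (SE 0.32, adjusted p = 0.748). Gpx7, its close relative in the lumen of the same compartment, read 8.55 and 8.61 in WT, 8.56, and then 8.94 and 8.85. The groups did not overlap without the array labelled replicate 1, but the difference of 0.32 did not pass (SE 0.07, adjusted p = 0.0887).

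Gpx3, the secreted peroxidase found in plasma, was at 7.97 and 8.01 in WT cells, 8.02 in the array labelled replicate 1, then 8.53 (replicate 2) and 8.65 (replicate 3). All 3 mutant arrays were above both WT arrays, the first of them by a margin smaller than the WT spread. Gpx3 rose by 0.60 (SE 0.08, 1.52-fold, adjusted p = 0.0476; over all 5 arrays 0.41, SE 0.21, adjusted p = 0.748). Gpx1, the main cytosolic peroxidase, read 12.82 and 12.83 in WT and 12.78, 13.20 and 13.02 on the mutant arrays, a difference of 0.28 on 4 arrays (adjusted p = 0.153).

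In the opposite direction, Gpx2, known as the peroxidase of the gut epithelium and as an NRF2 target, read 7.04 and 7.07 in WT cells, 7.12 in the array labelled replicate 1, then 6.23 (replicate 2) and 6.67 (replicate 3). Its difference of -0.61 was the lowest of the 51, but replicates 2 and 3 were 0.45 apart and it did not pass (SE 0.17, adjusted p = 0.12). Gpx4, which reduces lipid peroxides and guards against ferroptosis, was level, with 12.97 and 12.99 in WT and 12.97, 13.03 and 13.01 in the mutant. Gpx5, known from the epididymis, was dim, with a mean of 4.89. Gpx6, known from the olfactory epithelium, passed the filter with a mean of 5.63 and differed by 0.35, with replicate 2 alone above WT. Of the 7 peroxidases tested on 4 arrays 2 rose and 0 fell, against 3.29% of all genes higher and 1.34% lower.

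The promoters of Gpx8 and Gpx3, which rose, and of Nqo1, a classic NRF2 target, are shown to be read beside the values. They are RefSeq windows of build GRCm38.p6, from 250 bases before to 50 after the annotated start, written 5′ to 3′ on the strand of the gene. Windows were found for 46 of the 51 genes. Gclc, Hmox1, Gsta4, Gstt2 and Sod3 had none, so Hmox1, which also rose, is not covered by what follows. Gpx8 lies at chr13:113046339-113046638, minus strand, Gpx3 at chr11:54902604-54902903, plus strand and the quinone reductase gene Nqo1 at chr8:107403156-107403455, minus strand.
Gpx8: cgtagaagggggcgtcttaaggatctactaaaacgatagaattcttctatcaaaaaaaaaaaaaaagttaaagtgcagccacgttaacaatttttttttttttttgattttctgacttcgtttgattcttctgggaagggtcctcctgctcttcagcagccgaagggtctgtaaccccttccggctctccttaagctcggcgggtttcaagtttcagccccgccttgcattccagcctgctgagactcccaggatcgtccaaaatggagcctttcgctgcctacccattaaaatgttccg
Gpx3: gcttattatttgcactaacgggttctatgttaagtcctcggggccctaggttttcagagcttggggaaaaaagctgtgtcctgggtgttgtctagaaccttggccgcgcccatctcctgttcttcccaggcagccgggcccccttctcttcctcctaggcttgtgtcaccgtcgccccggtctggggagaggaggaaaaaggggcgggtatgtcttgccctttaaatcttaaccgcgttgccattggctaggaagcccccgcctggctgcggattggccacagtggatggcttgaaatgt
Nqo1: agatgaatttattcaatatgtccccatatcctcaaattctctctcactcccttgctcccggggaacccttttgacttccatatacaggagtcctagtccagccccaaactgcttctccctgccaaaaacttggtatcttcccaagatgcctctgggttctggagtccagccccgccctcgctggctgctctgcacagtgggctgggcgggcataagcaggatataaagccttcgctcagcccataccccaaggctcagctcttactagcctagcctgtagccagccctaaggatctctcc
The core of the antioxidant response element, searched as TGACNNNGC on both strands, was not in any of these 3 windows. It was in 10 of the 60 windows of the 46 genes (16.7%), beside 12.4% of all 32851 windows in the table. The 10 genes with such a window were Gclm, Gsta3, Gstm5, Gstm7, Mgst1, Mt2, Nfe2l2, Sod1, Srxn1 and Txnrd1. Without the array labelled replicate 1 their median difference was 0.05, with a range of -0.08 to 0.52, and that of the 36 genes without the core was 0.10, with a range of -0.61 to 0.88. Nfe2l2 (chr2:75704614-75704913, minus strand), Mgst1 (chr6:138140277-138140576, plus strand) and Srxn1 (chr2:152105274-152105573, plus strand) are shown for the core, which is in capitals.
Nfe2l2: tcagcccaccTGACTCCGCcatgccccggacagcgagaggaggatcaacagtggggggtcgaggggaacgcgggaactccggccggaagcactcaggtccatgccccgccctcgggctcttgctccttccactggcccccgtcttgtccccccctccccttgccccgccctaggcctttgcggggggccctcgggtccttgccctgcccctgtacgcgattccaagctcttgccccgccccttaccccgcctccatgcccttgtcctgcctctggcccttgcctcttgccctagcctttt
Mgst1: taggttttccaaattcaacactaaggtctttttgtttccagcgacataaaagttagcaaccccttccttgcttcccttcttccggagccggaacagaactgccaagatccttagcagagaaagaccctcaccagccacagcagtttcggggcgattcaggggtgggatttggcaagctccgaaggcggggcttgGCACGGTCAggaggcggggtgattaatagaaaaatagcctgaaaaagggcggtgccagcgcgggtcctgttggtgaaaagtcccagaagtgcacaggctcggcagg
Srxn1: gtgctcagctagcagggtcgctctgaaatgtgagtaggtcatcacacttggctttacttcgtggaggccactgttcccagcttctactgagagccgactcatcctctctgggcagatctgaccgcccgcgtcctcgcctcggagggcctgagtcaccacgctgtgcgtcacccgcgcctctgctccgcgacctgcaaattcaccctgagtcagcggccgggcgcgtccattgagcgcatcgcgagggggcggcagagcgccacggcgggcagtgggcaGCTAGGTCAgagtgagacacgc
In the Nfe2l2 window the core reads along the strand shown, and in the windows of Mgst1 and Srxn1 it reads on the other strand. A match describes these letters only, and elements that lie farther from the start are not in such windows.

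The regulators came next. Nfe2l2 read 10.72 and 10.72 in WT cells, 10.69 in the array labelled replicate 1, then 11.23 (replicate 2) and 10.86 (replicate 3). Replicate 2 was 1.43 times and replicate 3 1.10 times the WT mean, and the difference of 0.33 did not pass (SE 0.15, adjusted p = 0.252). Keap1 read 8.09 and 8.07 in WT cells, 7.98 in the array labelled replicate 1, then 8.50 (replicate 2) and 8.36 (replicate 3). The difference of 0.35 (SE 0.08, adjusted p = 0.0884) was in the same direction as that of Nfe2l2. On the chosen probe sets, the transcripts of NRF2 and of its inhibitor thus both read higher on these 2 arrays. A dimmer Keap1 probe set differed by 0.14, with 6.38 and 6.32 in WT, 6.39, and then 6.39 and 6.59. The other Nfe2l2 probe set was dim (mean 5.41) and differed by 0.03.

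Of the enzymes most used as readouts of NRF2, Hmox1 and Nqo1 read above WT on replicates 2 and 3 and those of glutathione synthesis did not. Hmox1, haem oxygenase, which breaks down haem, read 11.52 and 11.51 in WT cells, 11.45 in the array labelled replicate 1, then 12.24 (replicate 2) and 12.14 (replicate 3). The pair of high arrays lay well outside the spread of the other 3. Hmox1 rose by 0.67 (SE 0.07, 1.59-fold, adjusted p = 0.0422), against 0.42 over all 5 arrays (SE 0.27, adjusted p = 0.748). Nqo1, which reduces quinones by 2 electrons, read 8.27 and 8.29 in WT cells, 8.29 in the array labelled replicate 1, then 8.62 (replicate 2) and 8.60 (replicate 3). The 2 groups of like arrays were each tight, and the difference of 0.33 did not pass (SE 0.07, adjusted p = 0.0703).

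Gclc, the catalytic subunit of glutamate-cysteine ligase, went the other way. It read 10.12 and 10.11 in WT cells, 10.11 in the array labelled replicate 1, then 9.60 (replicate 2) and 9.91 (replicate 3), a difference of -0.36 (SE 0.13, adjusted p = 0.171). A further Gclc probe set did not share this pattern, with 9.60 and 9.54 in WT and 9.56, 9.72 and 9.26 in the mutant. Gclm, the modifier subunit, read 10.97 and 11.03 in WT and 10.97, 11 and 10.84 in the mutant, and its groups overlapped. A dimmer Gclm probe set did not overlap, with 7.60 and 7.53 in WT, 7.58, and then 7.33 and 7.40, a difference of -0.21.

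**Figure D2:**
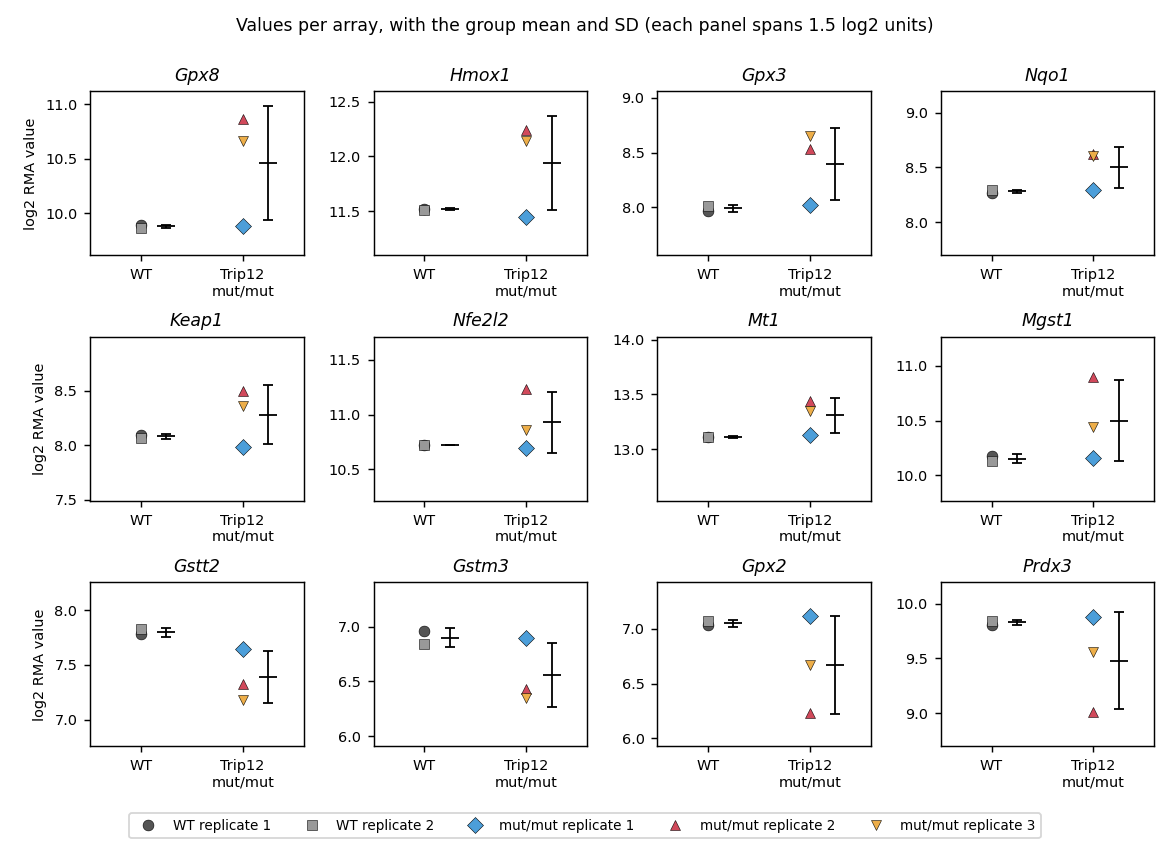
Log2 RMA values of 12 genes, 1 symbol per array, with the mean and SD of each labelled group (n = 2 for WT, n = 3 for Trip12 mut/mut) beside the symbols; each panel spans 1.5 log2 units. Replicates 2 and 3 lie together for Nqo1 (8.62 and 8.60) and apart for Prdx3 (9.01 and 9.56). The blue diamond of the array labelled replicate 1 lies within 0.2 of the WT mean in every panel.

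The 20 soluble glutathione S-transferases went both ways, with more of them higher than lower. Without the array labelled replicate 1 their median difference was 0.07, 9 read higher on both arrays, 3 read lower and 8 overlapped. Of all genes 26.7% read higher and 17.5% lower. Among the 15 with a mean at or above 5.52, 8 read higher (53.3%, against 35.0% of all such genes). Of these 15, 3 read lower, against 21.9% of all such genes. In the 4-array comparison 15 were tested and 0 passed. An unadjusted p below 0.05 in limma was found for 2 of the 15, against 28.8% of all genes. Both of these 2 were lower. Gstt2, of the theta class, read 7.78 and 7.83 in WT cells, 7.65 in the array labelled replicate 1, then 7.33 (replicate 2) and 7.18 (replicate 3). It was the 1 gene of the 51 for which all 3 mutant arrays were below WT, with a difference of -0.55 (SE 0.09, adjusted p = 0.0542; over all 5 arrays -0.42, SE 0.16, adjusted p = 0.748). Gstm3, of the mu class, read 6.96 and 6.84 in WT, 6.90, and then 6.43 and 6.35, a difference of -0.51 (SE 0.08, adjusted p = 0.0553).

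The differences of Gstm3 and Gstt2 were the largest in size within their gene clusters. In the RefSeq gene order the genes Gstm5, Gstm7, Gstm6, Gstm3, Gstm2, Gstm1 and Gstm4 follow each other on chromosome 3. Beside the -0.51 of Gstm3, its neighbours Gstm6 and Gstm2 differed by 0.08 each, Gstm1 by 0.14 and Gstm4 by -0.15. Gstm5 differed by -0.05 and Gstm7 by -0.06. Differences of this size are small, and Gstm6 and Gstm7 were dim and not tested on 4 arrays. The theta genes Gstt3, Gstt1, Gstt4 and Gstt2 follow each other on chromosome 10, where Gstt1 read higher by 0.26 and Gstt2 lower by 0.55. Gstt3 (0.05) and the dim Gstt4 (-0.08) overlapped WT. Neighbouring transferases are close in sequence, and the probe sets chosen for Gstm1 and Gstm3 are of a kind that can share probes with related transcripts, so these values are uncertain as measures of 1 gene.

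The omega class held the highest difference of the family. Gsto2, a dehydroascorbate reductase, read 5.94 and 5.90 in WT cells, 5.87 in the array labelled replicate 1, then 6.21 (replicate 2) and 6.86 (replicate 3). Its difference of 0.62 rested mostly on replicate 3 and did not pass (SE 0.24, adjusted p = 0.202). Gsto1, the next gene along the chromosome, read 11.86 and 11.88 in WT and 11.87, 12.01 and 12.38 in the mutant, and its other probe set had the opposite order, with 12.27 on replicate 2 and 11.53 on replicate 3. Gstp1, of the pi class, read 12.13 and 12.13 in WT, 12.08, and then 12.46 and 12.24 (difference 0.22, SE 0.10, adjusted p = 0.26). Gsta4, which conjugates the lipid peroxidation product hydroxynonenal, was level at 11.72 to 11.81 on all 5 arrays. Gstk1, of mitochondria and peroxisomes, was at 7.18 to 7.29 and Gstz1, of tyrosine breakdown, at 6.93 to 7.15.

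Among the microsomal transferases, which sit in membranes, Mgst1 read 10.18 and 10.13 in WT cells, 10.16 in the array labelled replicate 1, then 10.90 (replicate 2) and 10.44 (replicate 3). Both of those arrays were above WT but 0.46 apart, and the difference of 0.52 did not pass (SE 0.18, adjusted p = 0.163). Mgst2 and Mgst3 differed by 0.13 and -0.04, and their groups overlapped.

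The thioredoxin system had a median difference of 0.02 without the array labelled replicate 1, over genes that went both ways (-0.54 to 0.18). In the 4-array comparison 0 of its 8 genes passed, against 4.64% of all genes. An unadjusted p below 0.05 in limma was found for 0 of the 8, against 28.8% of all genes. Txn1, thioredoxin, read 13.26 and 13.27 in WT and 13.26, 13.01 and 13.26 in the mutant, so replicate 2 alone was lower. Txnrd1, the cytosolic reductase and a common NRF2 target, read 12.12 and 12.18 in WT and 12.12, 12.28 and 12.06 in the mutant, with replicates 2 and 3 on opposite sides of WT. Srxn1, sulfiredoxin, which repairs overoxidised peroxiredoxins, read 9.98 and 10.04 in WT, 10.02, and then 9.98 and 10.40. Replicate 3 alone was above WT, whereas a dimmer Srxn1 probe set read 8.34 and 8.35 in WT, 8.37, and then 8.57 and 8.59.

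Prdx3, the mitochondrial peroxiredoxin, had the lowest difference of this group. It read 9.81 and 9.84 in WT cells, 9.88 in the array labelled replicate 1, then 9.01 (replicate 2) and 9.56 (replicate 3), which are 0.569 and 0.83 times the WT mean. The difference of -0.54 did not pass (SE 0.21, adjusted p = 0.19). Prdx4, the peroxiredoxin of the endoplasmic reticulum, was level on its chosen probe set (10.85 to 10.90), while its other probe set above 8 read 8.77 and 8.84 in WT, 8.90, and then 8.30 and 8.69. Prdx2, of the cytosol, differed by 0.12 on the chosen probe set and by 0.62 on a dimmer one with values of 7.70 and 7.92 in WT, 7.92, and then 8.53 and 8.32. For Txnrd2 (mitochondria) the difference was 0.02 and for Txnrd3 (mainly testis) it was -0.23.

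Superoxide dismutases and catalase showed no shift common to replicates 2 and 3. Sod1, the cytosolic copper-zinc enzyme, was at 12.90 to 12.92 on all 5 arrays. A dimmer Sod1 probe set instead read 7.28 and 7.42 in WT, 7.41, and then 6.66 and 7.08. Sod2, the mitochondrial manganese enzyme, read 11.43 and 11.48 in WT and 11.47, 11.13 and 11.64 in the mutant, with replicates 2 and 3 on opposite sides of WT. Cat, the peroxisomal catalase, had the widest gap between replicates 2 and 3 of all 51 genes. It read 10 and 9.93 in WT cells, 10.02 in the array labelled replicate 1, 10.52 on replicate 2 and 9.85 on replicate 3. Its other probe set was also higher on replicate 2 (10.28) than on replicate 3 (9.92), with WT at 9.89 and 9.86. Sod3, the secreted enzyme, was dim (mean 5.29).

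Replicates 2 and 3 were thus less alike than the WT arrays. The median size of the gap between them was 0.16 over the 51 genes and 0.16 over all genes, against 0.04 and 0.05 between the WT arrays, and for 42 of the 51 genes it was the larger of the 2 gaps. Cat, Gsto2, Gstm7, Prdx3 and Sod2 had gaps above 0.5.

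The metallothionein genes Mt1 and Mt2, whose proteins bind zinc and copper, neighbour each other on chromosome 8. Mt1 read 13.11 and 13.11 in WT cells, 13.13 in the array labelled replicate 1, then 13.44 (replicate 2) and 13.35 (replicate 3). The difference of 0.29 did not pass (SE 0.07, adjusted p = 0.1). This probe set is also of a kind that can share probes with related transcripts. A much dimmer Mt1 probe set read 5.77 and 5.67 in WT, 5.62, and then 5.81 and 6.36. Mt2 read 13.15 and 13.17 in WT, 13.17, and then 13.24 and 13.21, a difference of 0.07 (adjusted p = 0.532). Both were among the brightest signals, and RMA values do not show whether a probe was saturated. Their promoter windows, at chr8:94178839-94179138, plus strand and chr8:94172368-94172667, plus strand, are shown for the metal response element through which the zinc sensor MTF1 acts, searched as TGCACNC and TGCGCNC on both strands and set in capitals.
Mt1: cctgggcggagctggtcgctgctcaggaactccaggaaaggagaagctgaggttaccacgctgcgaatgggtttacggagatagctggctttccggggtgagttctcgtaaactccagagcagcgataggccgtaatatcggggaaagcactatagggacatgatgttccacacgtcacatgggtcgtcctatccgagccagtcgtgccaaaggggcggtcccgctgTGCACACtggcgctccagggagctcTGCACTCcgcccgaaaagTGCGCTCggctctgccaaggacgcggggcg
Mt2: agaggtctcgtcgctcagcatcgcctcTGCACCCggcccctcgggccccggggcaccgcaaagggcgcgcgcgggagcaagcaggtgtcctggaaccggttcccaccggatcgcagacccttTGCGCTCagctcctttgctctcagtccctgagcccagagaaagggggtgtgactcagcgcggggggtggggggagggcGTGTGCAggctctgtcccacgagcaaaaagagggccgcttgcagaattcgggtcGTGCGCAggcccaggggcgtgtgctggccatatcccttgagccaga
The Mt1 window held 3 matches, all along the strand shown, and the Mt2 window 4, of which 2 were on the other strand. One or the other form was in 28.3% of the 60 windows and in 25.7% of all windows.

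The rest of the pathway was described with 6 further gene lists, none of which had a gene called over all 5 arrays. The counts are to be read beside all genes, of which 26.7% read higher and 17.5% lower on both replicates 2 and 3. On 4 arrays 3.29% were called higher and 1.34% lower. Most genes of these lists had a mean at or above 5.52, and of all such genes 35.0% read higher and 21.9% lower. Among 21 regulators and partners of NRF2 the median without the array labelled replicate 1 was 0.01, and 0 of the 19 tested on 4 arrays passed. Sqstm1, an autophagy receptor that binds KEAP1 and is itself an NRF2 target, read 11.29 and 11.37 in WT cells, 11.33 in the array labelled replicate 1, then 11.88 (replicate 2) and 11.77 (replicate 3) (difference 0.50, adjusted p = 0.0556). Maff, a small MAF partner, differed by 0.59 (adjusted p = 0.0648) and Syvn1, a ubiquitin ligase, by 0.44. Nfe2l3, a relative of NRF2, differed by -0.54 and was lower on all 3 mutant arrays, at dim values of 4.27 and 4.18 in WT and 3.89, 3.78 and 3.60 in the mutant. It was the 1 gene of this list with an unadjusted p below 0.05 over all 5 arrays in limma, and it did not pass (adjusted p = 0.748).

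Other NRF2 target genes were split. Of 28 measured, 13 read higher and 9 lower on both replicates 2 and 3, with a median of 0.07, and of 24 tested on 4 arrays 0 rose and 1 fell (4.17%, near the background of 4.64%). The 1 was Pir, pirin, with 7.65 and 7.72 in WT cells, 7.53 in the array labelled replicate 1, then 6.86 (replicate 2) and 6.97 (replicate 3) (difference -0.77, adjusted p = 0.042). Cbr3, a carbonyl reductase, differed by -1.02 with 8.73 and 9.41 on replicates 2 and 3 against 10.03 and 10.15 in WT, and Phgdh, the first enzyme of serine synthesis, by -0.70. The aldo-keto reductase Akr1b8 differed by 0.56 and the glutathione conjugate exporter Abcc1 by 0.54. None of these 4 passed, with adjusted p-values of 0.0968, 0.0527, 0.053 and 0.0709 in this order.

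Of 29 other genes of glutathione metabolism 13 read higher (44.8%, against 26.7% of all genes) and 5 lower (17.2%, against 17.5%), with a median of 0.15. Among the 27 with a mean at or above 5.52, 44.4% read higher (against 35.0% of all such genes) and 18.5% lower (against 21.9%). On 4 arrays 3 of the 28 tested rose while 0 fell (10.7%, against 4.64% of all genes called). Glrx, glutaredoxin, which uses glutathione to reduce protein disulfides, read 9.75 and 9.80 in WT cells, 9.74 in the array labelled replicate 1, then 10.43 (replicate 2) and 10.46 (replicate 3) (difference 0.67, adjusted p = 0.042). Cth, which makes cysteine from cystathionine, rose by 0.56 (adjusted p = 0.0496) and Ptges, a glutathione-dependent prostaglandin synthase, by 0.72 (adjusted p = 0.0426). Clic1 and Clic4, of a family related to the transferases, differed by 0.53 and 0.51, Oplah, the oxoprolinase, by 0.47 and Ggct, which cleaves glutamyl peptides, by -0.45, and these 4 did not pass. Among 33 other thioredoxin, methionine sulfoxide and selenoprotein genes 1 rose and 0 fell (3.03%). It was Txnip, which binds thioredoxin and limits it, at 10.34 and 10.40 in WT, 10.33, and then 11.52 and 11.29 (difference 1.03, adjusted p = 0.042). The methionine sulfoxide reductase Msrb3 differed by 0.86 (adjusted p = 0.0555), the selenoprotein genes Selenop and Selenos by 0.53 and 0.48 and Tmx3, of the thioredoxin fold, by 0.44.

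For metal and iron handling 0 of 21 tested genes rose and 1 fell (4.76%). Slc40a1, ferroportin, the iron exporter, read 9.22 and 9.11 in WT cells, 9.04 in the array labelled replicate 1, then 8.29 (replicate 2) and 8.16 (replicate 3) (difference -0.94, adjusted p = 0.042). The metal transporter genes Slc39a8, Slc39a6, Slc39a10 and Slc31a1 differed by -0.87, 0.56, -0.51 and 0.45 and did not pass. Of 18 sources of oxidants 9 read higher and 1 lower, with a median of 0.25, and 2 of the 15 tested rose (13.3%). Ero1a, which passes electrons from disulfide formation to oxygen in the endoplasmic reticulum, rose by 1.02 (adjusted p = 0.042). Cyba, a subunit of the NADPH oxidases, rose by 0.69 (adjusted p = 0.0467). Ncf4 and Cybb, of the phagocyte oxidase, differed by 0.66 and 0.50, Ero1b by 0.57 and the lysyl oxidase gene Lox, also 1 of the fibroblast markers, by 0.52, and these 4 did not pass.

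**Figure D3:**
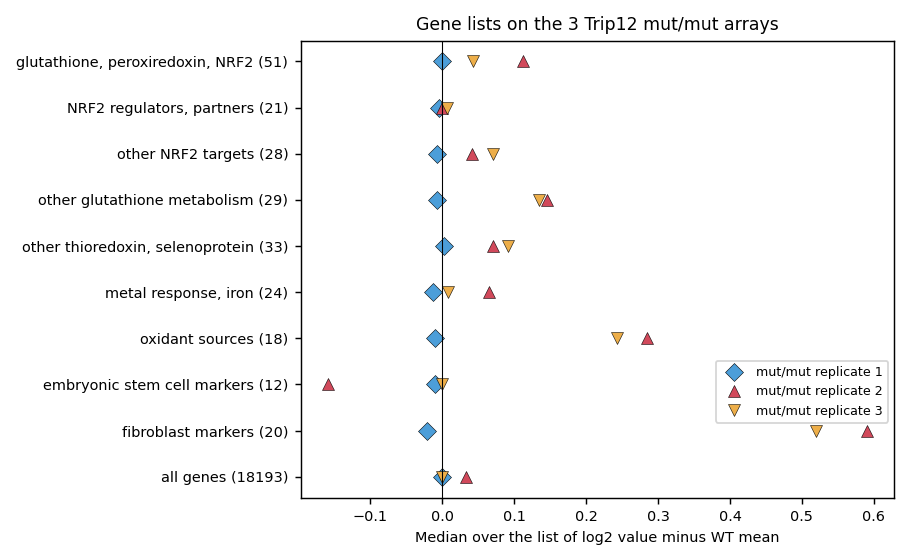
For each gene list (number of measured genes in brackets) the median over its genes of the log2 value minus the WT mean is plotted for each of the 3 Trip12 mut/mut arrays. All lists sit near 0 on the array labelled replicate 1; the 51 genes reach 0.11 and 0.04 on replicates 2 and 3, and the fibroblast markers 0.59 and 0.52.

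Set against the whole array, the 51 genes had a median between that of all genes and that of the fibroblast markers. Without the array labelled replicate 1 the quartiles of their differences ran from -0.05 to 0.30, against -0.10 to 0.17 for all genes and 0.37 to 0.63 for the fibroblast markers. Replicate 2 and replicate 3 had medians of 0.11 and 0.04 over the 51 genes, beside 0.03 and 0 over all genes. In the 4-array comparison 30.0% of the fibroblast markers were called, all of them higher, against 6.82% of the 44 genes tested. No test of these lists against each other was made.

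**Figure D4:**
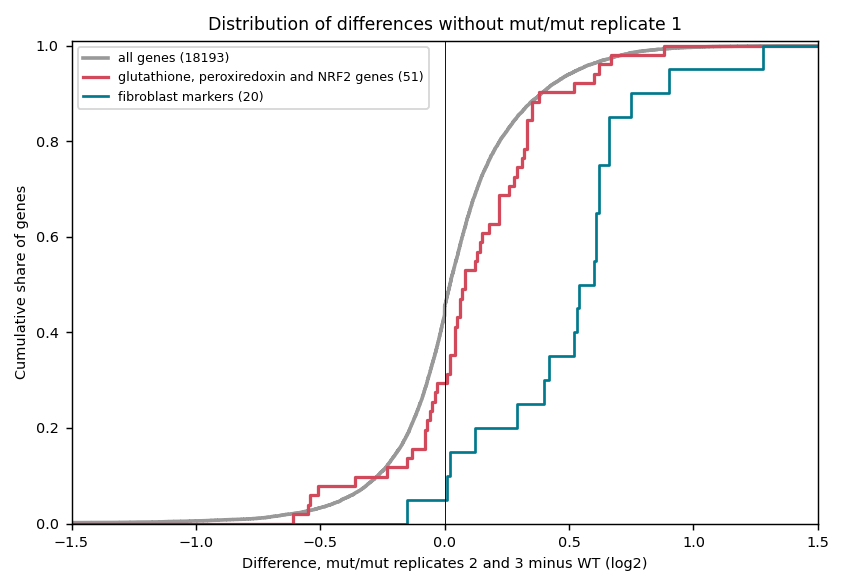
Cumulative share of genes (vertical axis) by difference in log2 units between Trip12 mut/mut replicates 2 and 3 and WT (horizontal axis) for all 18193 genes, the 51 genes and 20 fibroblast markers. The curve of the 51 genes runs to the right of that of all genes in its middle (medians 0.08 and 0.02), and that of the fibroblast markers lies farther right (median 0.57).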

How the data were processed

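The deposited values are log2 RMA values, 1 per probe set and array; the authors made them with RMA (background correction, quantile normalisation, probe summary), per the submitters' processing notes, which name no version. Of 45101 probe sets 64 array controls were left out. The platform annotation gave 34945 of the other 45037 a single symbol, 932 several and 9160 none. For 34741 probe sets the gene number was found in the RefSeq table of GRCm38.p6, and the symbol was taken from there. Array medians were 5.51 to 5.55, so a global change of RNA amount is not visible, and RMA gives no detection call. The number of arrays limits the precision.

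Genotype was the only term in limma 3.58.1 (R 4.3.3, lmFit and eBayes, two-sided, Benjamini-Hochberg over all genes). The procedure was run on simulated data in which all 3 mutant arrays were shifted. Mutant replicate 1 was at the WT level here, so that run is no check of power for these arrays. Genes given with values per array were Nfe2l2, Keap1, Nqo1, Hmox1, Gclc, Gclm, Srxn1, Txnrd1, Txn1, Cat, Mt1 and Mt2, every member called, the 12 largest differences with a mean at or above 5.52 and replicates 2 and 3 on 1 side of WT, and the member with the highest mean in each role; other members are given by difference, and where their values stand in full they were chosen after being seen. In the further lists those called were named and the 4 others of largest size. The members, lists and alternatives were chosen with earlier results of these data known. Protein sequences were not used here. Figures were drawn with matplotlib 3.10.9.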

Additional observations from a re-analysis of the deposited data

How the results depend on the processing

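The 0 of 51 genes called over all 5 arrays stayed 0 with quantile normalisation, centred array medians, dim probe sets removed, array weights, robust estimation with a variance trend, probe sets averaged or chosen by largest SD, and each array left out in turn. Among the settings run, calls appeared only where mutant replicate 1 was left out and dim probe sets were removed as well: 539 of all genes and 3 of the 51 where at least 2 arrays were above 5.52, and 504 and 3 where the mean of the 4 arrays was, with a median of 0.118 over the 45 members kept there. Adjusted p-values of those 3 genes there ran from 0.0422 to 0.0483. With a replicate block, 0 genes were called. The deviations of same-numbered arrays from their group means correlated at -0.05 and -0.132. With 2 WT arrays, and mutant replicate 1 at the WT level, these correlations cannot show whether the numbers pair the arrays.

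Of 368 values of 23 named genes under other settings, 14 changed sign. Gpx4 was at -0.00126 with quantile normalisation, and Srxn1 at -0.00689 with the replicate block and between -0.00689 and 0.2 with 1 array left out. Txnrd1 was at -0.0078 with centred medians, -0.03 with array weights and with the mean of probe sets, -0.01 with the probe set of largest SD, and between -0.06 and 0.05 with 1 array left out. Cat was between -0.03 (without replicate 2) and 0.31 with 1 array left out. Sod1 was at -0.02 with quantile normalisation, -0.00663 with centred medians, -0.06 with the mean of probe sets and -0.3 with the probe set of largest SD. Of 27 other probe sets of these genes above 5.52, 18 had the sign of the chosen one without the array labelled replicate 1 and 9 did not. The causes were not tested.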
